A study of Mus musculus with 2 samples.

Results

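The genes of cholesterol synthesis and its control by the transcription factor SREBP2 were examined in spatial transcriptomics (ST) data of mouse liver. The set was a list of 29 symbols, chosen by function and matched to the gene symbols of the feature tables. Of these, 28 were found among the 19465 genes listed, and Fdps, which encodes farnesyl diphosphate synthase, was not analysed here. They comprised 6 genes of the mevalonate steps, 3 from squalene to lanosterol, 8 after lanosterol, 4 that regulate SREBP2, and 7 for sterol uptake, transfer, esterification and efflux. The first 3 groups, 17 genes in all, are called the enzymes below.

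The study asked what deletion of AEG-1 in myeloid cells does to fatty liver disease, and ST compared 1 formalin-fixed liver section of each of 2 genotypes. AEG-1ΔMAC carried floxed alleles of AEG-1 (gene Mtdh) together with Cre driven from the Lyz2 locus, which is active in macrophages and other myeloid cells, and AEG-1fl/fl carried the floxed alleles alone. Per the labels both mice were 27 weeks old, were fed the high fat/high sugar diet (HF/HSD) from 7 weeks of age for 20 weeks, and had their sections on the same slide, whereas per the study's text the assay used littermates on the control diet. Which diet these 2 mice ate is therefore not settled, and the labels do not give their sex. The deletion is in myeloid cells, whereas each ST spot holds several cells and most of its RNA comes from hepatocytes. With 1 library per genotype there was no replicate, no test and no p-value, so every interval below covers counting error only and not variation among animals or among sections of 1 animal.

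Paired values below give AEG-1ΔMAC first and AEG-1fl/fl second. After filtering, 2140 and 2540 spots remained, with 45453286 and 50322850 UMIs (unique molecular identifiers, 1 per captured probe). The median spot held 20929.5 and 18285 UMIs, and 1782 spot barcodes, which are position codes of the array, occurred in both. The 5 hepatocyte markers (Alb, Apoa1, Apoa2, Ttr and Trf) took 172922 and 236434 CPM (counts scaled to a total of 1000000 UMIs per section), and none of them was at 0, so the liver label fits its markers. Averaged over both sections, 6933 genes reached 10 CPM, and their median log2 ratio of AEG-1ΔMAC over AEG-1fl/fl was 0.15 rather than 0. Fewer cells of a type and less RNA per cell cannot be told apart in spots.

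Cells build cholesterol from acetyl-CoA: the mevalonate steps make isoprene units, squalene synthase joins them, ring closure gives lanosterol, and a chain of demethylations, reductions and an isomerisation finishes the sterol. When sterols in the endoplasmic reticulum run low, SCAP escorts SREBP2 to the Golgi, where it is cleaved, and the released factor raises transcription of nearly every gene of the chain, whereas INSIG proteins hold SCAP back when sterols are plentiful. Sterol surplus acts through LXR instead, which raises exporters such as ABCA1 and the ABCG5/ABCG8 pair. Hepatocytes carry out much of the synthesis in the body, and they differ along the lobule from the periportal zone 1 to the pericentral zone 3.

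SREBP2 binds the sterol regulatory element and works beside NF-Y, which binds CCAAT boxes, and Sp1, which binds GGGCGG, so promoters were searched for these letters on both strands. Windows from 250 bases before to 50 bases after the start (RefSeq, GRCm38.p6) were given for 23 of the 28 genes, and none for Fdft1, Sqle, Stard4, Soat2 and Scarb1. The element in the form TCACNCCAC was in the windows of 1 of the 23, Hmgcs1, and of 206 of the 15061 genes in the files with a window (1.37%). The SREBP palindrome TCACGTGA was in 0 of the 23, against 1.52% of those genes. CCAAT was in 20 of the 23 genes (87.0%) against 41.7%, and among the 15 enzymes with a window in 14 (93.3%). GGGCGG was in 19 of the 23 (82.6%) against 53.4%. The 3 windows below belong to the genes with an entry and at least 10 CPM whose zonation differed by 1.5-fold or more between the sections. Capitals mark TCACCCCAC, which starts 137 bases before the start of Hmgcs1, and each CCAAT or its complement ATTGG. The windows are chr13:119690101-119690400 on the plus strand for Hmgcs1, chr10:76531355-76531654 on the plus strand for Lss and chr8:64733529-64733828 on the minus strand for Msmo1, each read 5′ to 3′. A match is a description of these letters, not of binding.
Hmgcs1: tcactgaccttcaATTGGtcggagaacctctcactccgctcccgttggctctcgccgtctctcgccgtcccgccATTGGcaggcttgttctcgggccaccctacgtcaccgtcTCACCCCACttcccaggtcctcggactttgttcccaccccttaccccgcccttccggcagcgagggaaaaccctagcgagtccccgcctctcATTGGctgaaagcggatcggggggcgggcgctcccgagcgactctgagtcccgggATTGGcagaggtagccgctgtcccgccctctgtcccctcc
Lss: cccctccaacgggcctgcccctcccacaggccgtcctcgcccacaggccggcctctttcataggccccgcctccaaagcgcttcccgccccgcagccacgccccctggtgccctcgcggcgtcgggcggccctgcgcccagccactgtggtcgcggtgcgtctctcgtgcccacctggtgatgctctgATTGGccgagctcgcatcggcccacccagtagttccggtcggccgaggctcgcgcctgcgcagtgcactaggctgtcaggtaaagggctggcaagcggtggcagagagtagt
Msmo1: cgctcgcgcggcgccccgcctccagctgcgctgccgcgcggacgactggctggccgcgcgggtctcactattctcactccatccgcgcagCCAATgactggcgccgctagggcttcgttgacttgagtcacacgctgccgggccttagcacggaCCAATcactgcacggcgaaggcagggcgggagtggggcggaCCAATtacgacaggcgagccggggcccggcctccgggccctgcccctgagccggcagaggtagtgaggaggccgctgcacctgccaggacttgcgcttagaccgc

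The enzymes were mostly lower in AEG-1ΔMAC than in AEG-1fl/fl, by modest amounts. Of the 17 enzymes, 15 had a mean of at least 10 CPM, and 13 of these 15 had a log2 ratio below 0 with an interval below 0, against 812 of all 6933 genes. Their median log2 ratio was -0.28, or -0.43 relative to the median of all genes. Summed over the same 15 genes, the level was 1377 and 1763 CPM, which gives a log2 ratio of -0.36 (95% interval -0.37 to -0.34). A gene was called only at 1.5-fold or more with its interval on the same side. By that rule 2 of the 25 genes of the set with at least 10 CPM were lower, Pmvk and Lss, against 1.79% of all genes, and Sc5d, Dhcr7 and Fdft1 joined them under each of 4 other scalings. By the same rule 0 of 25 were higher, against 4.3% of all genes. The hepatocyte markers were lower too, with 4 of 5 log2 ratios below 0 and a summed log2 ratio of -0.45, and whether that has a part in the enzyme values was not tested.

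**Figure D1:**
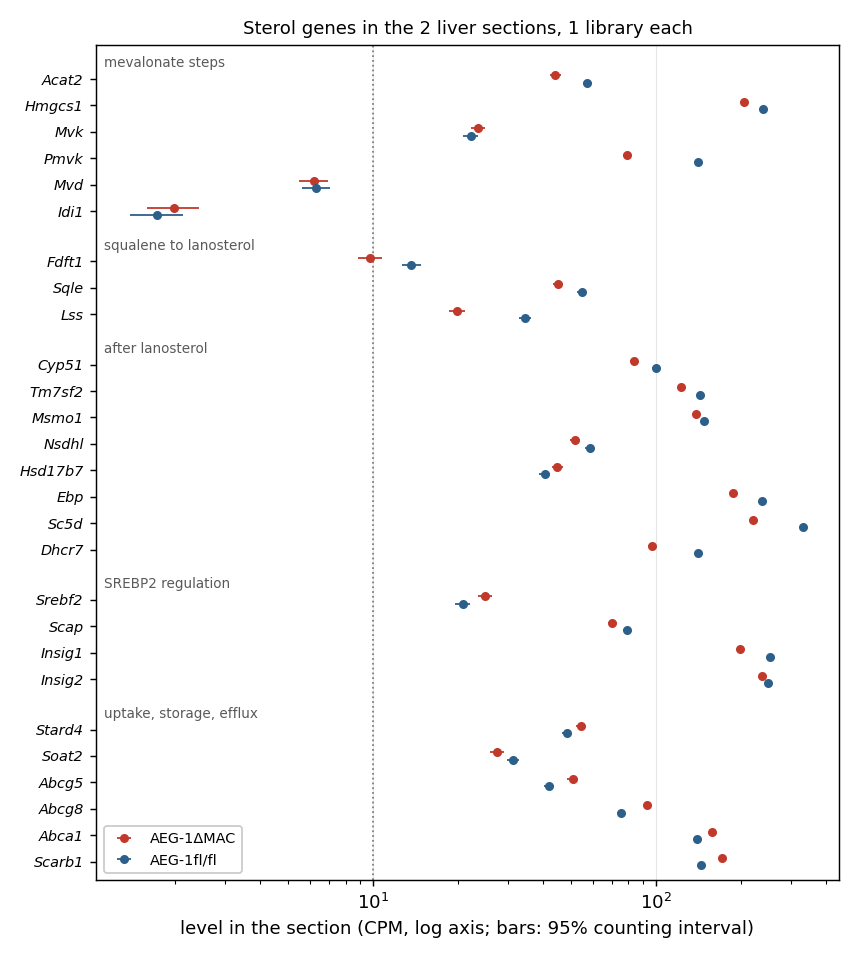
Level of each gene in the AEG-1ΔMAC and AEG-1fl/fl sections on a log axis of CPM, with 95% Poisson intervals and a dotted line at 10 CPM. Within a row, most enzymes have the AEG-1ΔMAC point to the left, as for Pmvk at 79.1 against 140.7 CPM, and levels of different rows are not comparable because each gene has its own probes.

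In the mevalonate steps, 3 of 4 genes with at least 10 CPM had an interval below 0. Pmvk, phosphomevalonate kinase (chromosome 3, 89454541 to 89469013, plus strand, mm10), had 79.1 CPM (76.5 to 81.7) and 140.7 CPM (137 to 144). Its log2 ratio of -0.83 (-0.89 to -0.77) was the lowest of the set. Acat2, the cytosolic thiolase that joins the first acetyl units (chromosome 17, 12942890 to 12960747, minus strand), had 44.2 and 57.3 CPM and a log2 ratio of -0.37 (-0.46 to -0.29). Acat2 has a near copy, Acat3, whose longest transcript is identical at 97.7% of 1477 aligned bases, so the split of probe counts between them is uncertain. Acat3 had 58.3 and 59.4 CPM, a log2 ratio of -0.03 (-0.10 to 0.05). Hmgcs1, the cytosolic synthase that feeds the mevalonate pathway (chromosome 13, 119690379 to 119708260, plus strand), had 206 and 240 CPM and a log2 ratio of -0.22 (-0.26 to -0.18). Mvk, mevalonate kinase, had 23.5 and 22.2 CPM, and its log2 ratio was 0.09 (-0.03 to 0.21), which is -0.06 relative to the median of all genes. Mvd and Idi1, the decarboxylase and the isomerase that follow, were below 10 CPM. Mvd had 281 and 317 UMIs (6.18 and 6.30 CPM) and Idi1 had 90 and 87 UMIs (1.98 and 1.73 CPM), and no difference was detectable in either at this depth.

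All 3 genes from squalene to lanosterol had an interval below 0. Lss, lanosterol synthase, which closes the rings (chromosome 10, 76531588 to 76557138, plus strand), had 19.9 CPM (18.6 to 21.2) and 34.5 CPM (32.9 to 36.2), with a log2 ratio of -0.80 (-0.91 to -0.68). Fdft1, squalene synthase (chromosome 14, 63145150 to 63179578, minus strand), rested on 444 and 688 UMIs, with 9.77 and 13.7 CPM and a log2 ratio of -0.49 (-0.66 to -0.31). Sqle, squalene epoxidase (chromosome 15, 59315077 to 59331192, plus strand), had 45.1 and 54.8 CPM and a log2 ratio of -0.28 (-0.36 to -0.20). The order of Lss, Fdft1 and Sqle by ratio is not settled for Fdft1, whose interval overlaps that of Sqle.

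After lanosterol, 7 of 8 genes had an interval below 0. Sc5d, lathosterol oxidase (chromosome 9, 42251595 to 42264256, minus strand), had 221.5 and 331 CPM, with a log2 ratio of -0.58 (-0.62 to -0.55). Dhcr7, the reductase of the last step in one branch (chromosome 7, 143823145 to 143848410, plus strand), had 97.0 and 140.9 CPM and a log2 ratio of -0.54 (-0.59 to -0.48). Both lay just short of 1.5-fold. Ebp, the sterol isomerase, was at -0.34, Cyp51, the lanosterol demethylase, at -0.25, Tm7sf2, a sterol reductase, at -0.22, and Nsdhl, a sterol dehydrogenase, at -0.18. Msmo1, the methylsterol oxidase (chromosome 8, 64718139 to 64733792, minus strand), had 139 and 148 CPM and a log2 ratio of -0.09 (-0.14 to -0.04). Hsd17b7, a keto-sterol reductase (chromosome 1, 169949535 to 169969241, minus strand), was the only enzyme with an interval above 0, with 44.9 and 40.5 CPM, or 0.15 (0.06 to 0.24) as log2 ratio, which equals the median of all genes. Msmo1, Nsdhl and Hsd17b7 act together in removing methyl groups from the ring, and theirs were the 3 highest ratios after lanosterol. The rank of Nsdhl is not settled, because its interval (-0.26 to -0.10) overlaps those of Tm7sf2 (-0.27 to -0.16) and Cyp51 (-0.31 to -0.19).

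**Figure D2:**
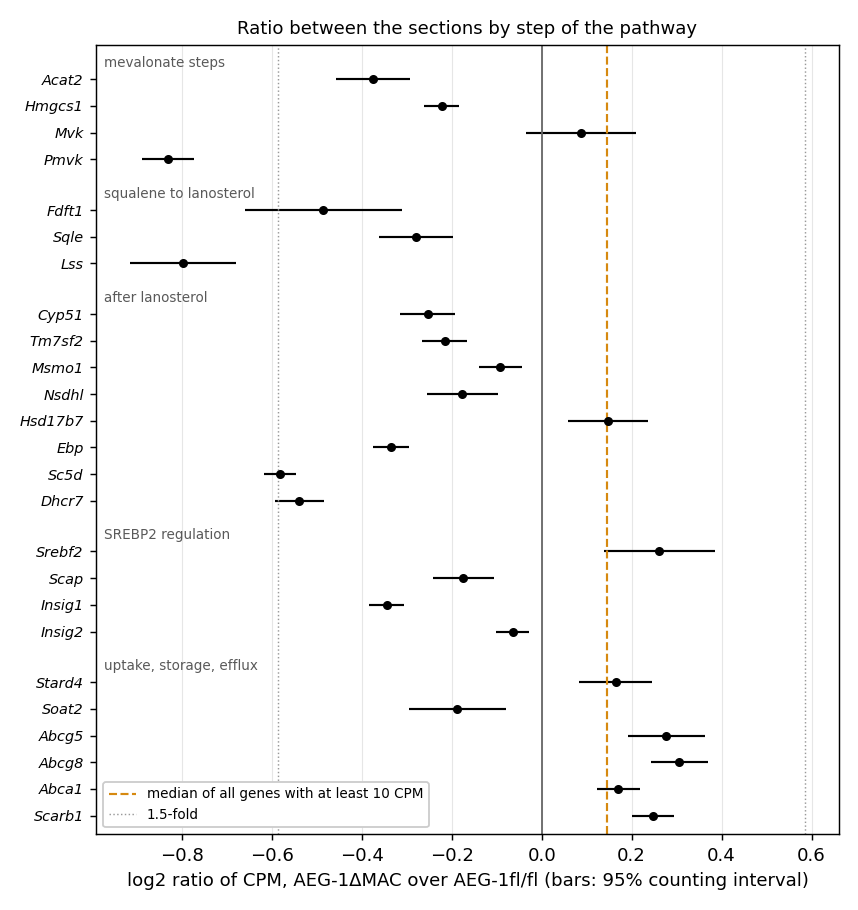
Log2 ratio of AEG-1ΔMAC over AEG-1fl/fl for the 25 genes with at least 10 CPM, with 95% counting intervals, the median of all genes (dashed, 0.15) and 1.5-fold (dotted). Pmvk and Lss lie beyond 1.5-fold at -0.83 and -0.80, and 14 of the 15 enzymes lie left of the dashed line.

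The regulators did not share one direction. Srebf2, which encodes SREBP2 (chromosome 15, 82147181 to 82205379, plus strand), had 24.9 CPM (23.5 to 26.4) and 20.8 CPM (19.6 to 22.1), with a log2 ratio of 0.26 (0.14 to 0.38). Insig1, an anchor of SCAP that is itself an SREBP target (chromosome 5, 28071363 to 28078662, plus strand), had 199 and 253 CPM and a log2 ratio of -0.34 (-0.38 to -0.31). Thus the transcript of the factor was higher and that of its target Insig1 lower in the same section. Scap, the escort (chromosome 9, 110333288 to 110384950, plus strand), had 70.3 and 79.3 CPM and a log2 ratio of -0.17 (-0.24 to -0.11). Insig2, the second anchor (chromosome 1, 121304353 to 121332589, minus strand), had 238 and 249 CPM and a log2 ratio of -0.06 (-0.10 to -0.03). Relative to the median of all genes, Srebf2 was at 0.12 and Insig2 at -0.21. The interval of Srebf2 held that median (0.15), so Srebf2 was not set apart from the general shift within counting error.

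Most genes of transfer and efflux were slightly above 0, as were most genes of the section. Of the 6 with at least 10 CPM, 5 had an interval above 0, against 4123 of all 6933 genes, and their median log2 ratio was 0.21, or 0.06 relative to all genes. Abcg8 and Abcg5, the 2 subunits of the exporter of sterols into bile, had 93.4 and 75.5 CPM, and 50.8 and 41.9 CPM. The log2 ratio was 0.31 (0.24 to 0.37) for Abcg8 (chromosome 17, 84676302 to 84700333, plus strand) and 0.28 (0.19 to 0.36) for Abcg5 (chromosome 17, 84658234 to 84683011, minus strand), whose annotated spans overlap on opposite strands. Scarb1, the receptor for high-density lipoprotein, was at 0.25, Abca1, which loads cholesterol onto apolipoprotein A-I, at 0.17, and Stard4, a cytosolic sterol carrier, at 0.16. Abca1 and Stard4 were only 0.02 above the median of all genes. Soat2, which esterifies cholesterol, had 27.5 and 31.3 CPM and was the exception at -0.19 (-0.30 to -0.08). Npc1l1, a sterol importer, had 0 UMIs in both sections, which allows up to 0.0660 and 0.0596 CPM at 3 counts.

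Other genes of the pathway and its partners did not all go with the enzymes. Among 17 further genes of isoprenoid branches, SREBP processing and sterol handling with at least 10 CPM, the median log2 ratio was 0.12. Of these 17, 7 had an interval above 0 and 5 below, against 4123 and 812 of all 6933 genes. The 2 extremes both form acyl-CoA that can enter the mevalonate steps. Aacs, acetoacetyl-CoA synthetase, was called higher at 122 and 44.7 CPM and 1.45 (1.38 to 1.52), whereas Acss2, acetyl-CoA synthetase, had 156 and 233 CPM and -0.58 (-0.62 to -0.54). The proteases that cleave SREBPs were at 0.21 for Mbtps1 and -0.12 (-0.30 to 0.05) for Mbtps2. Of 5 genes of LXR and its targets, Mylip, which marks lipoprotein receptors for degradation, had 13.8 and 7.19 CPM, at 0.94 (0.75 to 1.13), and the median was 0.23. Of 10 genes of fatty acid synthesis under the related factor SREBP1, 8 had an interval below 0, against the same 812 of 6933. Their median was -0.54, and 4 were called lower (Scd1, Elovl5, Acly and Gpam), against 1.79% of all genes. Srebf1 itself was at 0.24 (0.15 to 0.33).

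Clock and feeding genes also differed between the sections, and sterol synthesis follows both. All 4 evening-phase clock genes with at least 10 CPM were called higher, against 4.3% of all genes, with a median log2 ratio of 1.39. The 3 morning-phase genes had a median of -0.60, with Arntl at -0.71, Nfil3 at -0.60 and Clock at 0.11 (0.004 to 0.207). Among genes that follow feeding, Igfbp1 was at -0.35, Irs2 at -0.25 and G6pc, a glucose phosphatase subunit, at 0.58, each with an interval on one side of 0. The labels give no time of day or feeding state at collection, and the part of either in the sterol genes was not tested.

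Levels were then read along the lobule. Spots of each section were ranked by zone 3 minus zone 1 markers of the study, none of which belongs to the set, and cut into a zone 1, a middle and a zone 3 part of equal numbers. Zonation is the log2 ratio of the zone 3 part over the zone 1 part. In AEG-1fl/fl 11 of 15 enzymes had a zonation above 0, a share near that of all genes (4713 of 6933), but their median was 0.26 against 0.07 for all genes. In AEG-1ΔMAC 8 of 15 were above 0, where 4785 of all 6933 genes were, and the median was 0.04 against 0.09 for all genes, with a sign that turned under other zone indices and spot choices (down to -0.11). By the 1.5-fold rule, 1 of the 25 genes was pericentral in AEG-1fl/fl, Hmgcs1, against 2.84% of all genes, and 0 were periportal, against 1.75%. In AEG-1ΔMAC 1 was pericentral, Abcg8, against 2.97% of all genes, and 1 was periportal, Sqle, against 2.03%. With an index from landmark genes neither Hmgcs1 nor Abcg8 reached 1.5-fold.

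**Figure D3:**
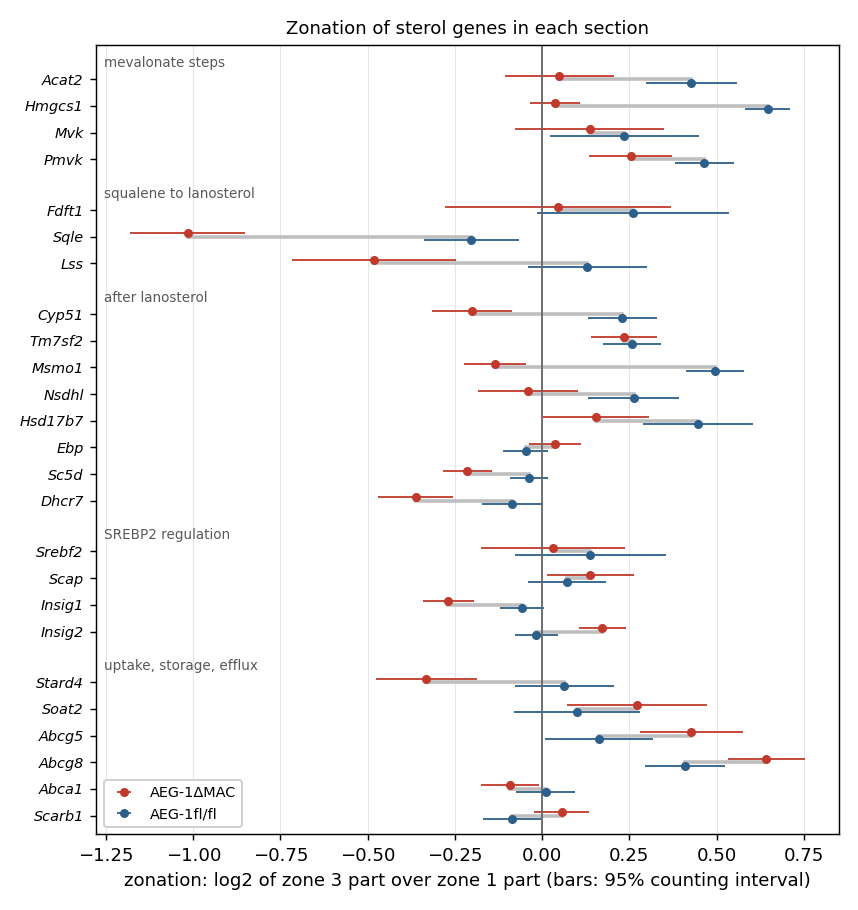
Zonation of the 25 genes with at least 10 CPM in AEG-1ΔMAC and AEG-1fl/fl, as the log2 ratio of the zone 3 part over the zone 1 part with 95% counting intervals, and a grey bar joining both values. Among the enzymes the AEG-1ΔMAC point is left of the AEG-1fl/fl point in 14 of 15 rows, with the widest gap for Sqle (-1.02 and -0.20).

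The difference between the sections in zonation ran one way for the enzymes. In 14 of 15 the zonation was lower in AEG-1ΔMAC, in 11 with an interval of the difference below 0 and in 0 with one above, whereas of all 6933 genes 580 had such an interval below 0 and 627 above. At least 1.5-fold lower were 4 of the 25 genes (Hmgcs1, Sqle, Lss and Msmo1), against 0.865% of all genes, and 0 were at least 1.5-fold higher, against 0.433%. The 10 genes of fatty acid synthesis did likewise, with an interval below 0 in 10 of 10. Their median difference was -0.26 against -0.29 for the enzymes. The 6 zone 1 markers that helped make the ranking had an interval below 0 in 6 of 6, with a median difference of -0.41. Of 5 other zone 1 landmark genes, 4 had an interval below 0 and 1 above, at a median of -0.38. Of the 5 hepatocyte markers, 4 had one below 0 and 1 above, at a median of -0.03. The lower zonation was thus not particular to sterol synthesis or to lipid synthesis. The 4 sterol genes span all 3 stages of the pathway, and Lss fell short of 1.5-fold under a zone index from other landmark genes (-0.49) and with both sections ranked together (-0.46). With 1 section each, whether the zonation differs between the genotypes was not tested.

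Hmgcs1 had the largest difference in zonation among the 4 mevalonate genes with at least 10 CPM. It had 207, 198 and 212 CPM in the zone 1, middle and zone 3 parts of AEG-1ΔMAC and 191, 232 and 299 CPM in those of AEG-1fl/fl. Its zonation was 0.04 (-0.04 to 0.11) and 0.65 (0.58 to 0.71), a difference of -0.61 (-0.71 to -0.51). The gene was thus nearly equal at the 2 ends of the lobule in AEG-1ΔMAC and climbed 1.57-fold in AEG-1fl/fl. The zonation of Acat2 was 0.05 and 0.43, and that of Pmvk was 0.25 and 0.46. For the 6 mevalonate genes summed, the zonation was 0.09 (0.03 to 0.14) and 0.54 (0.50 to 0.59).

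Sqle went furthest towards zone 1. It had 60.9, 44.4 and 30.1 CPM in the 3 parts of AEG-1ΔMAC, from zone 1 to zone 3, and 57.5, 56.8 and 49.9 CPM in AEG-1fl/fl. Its zonation was -1.02 (-1.18 to -0.85) in AEG-1ΔMAC, a 2.02-fold slope, and -0.20 (-0.34 to -0.07) in AEG-1fl/fl. In zone 1 the sections could not be distinguished for Sqle within counting error, and they parted towards zone 3. Lss had 23.9, 18.6 and 17.1 CPM in AEG-1ΔMAC and 33.0, 34.5 and 36.1 CPM in AEG-1fl/fl, so its ranges did not overlap, and its zonation was -0.48 (-0.72 to -0.25) and 0.13 (-0.04 to 0.30). Fdft1 had a zonation of 0.04 and 0.26, and the difference of -0.22 had an interval from -0.63 to 0.20.

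After lanosterol, Msmo1 had opposite slopes in the 2 sections. It had 145, 140 and 132 CPM from zone 1 to zone 3 in AEG-1ΔMAC and 124, 147 and 174 CPM in AEG-1fl/fl. Its zonation was -0.14 (-0.22 to -0.05) and 0.50 (0.41 to 0.58). Cyp51 also turned, with -0.20 (-0.31 to -0.09) and 0.23 (0.13 to 0.33). Hsd17b7 was above 0 in both sections, with a zonation of 0.15 (0.00 to 0.31) and 0.45 (0.29 to 0.60). Dhcr7 was at -0.36 and -0.09 and Sc5d at -0.21 and -0.04. Tm7sf2 kept its slope, with 0.23 and 0.26, and Ebp, at 0.04 and -0.05, was the 1 enzyme whose value was not lower in AEG-1ΔMAC.

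The regulators were nearly level along the lobule. The summed zonation of the 4 was 0.00 in AEG-1ΔMAC (-0.05 to 0.04) and -0.02 in AEG-1fl/fl (-0.06 to 0.02). Within that sum the anchors went apart in AEG-1ΔMAC. Insig1 had 218, 199 and 181 CPM there and a zonation of -0.27 (-0.34 to -0.20), while Insig2 had 228, 230 and 257 CPM and 0.17 (0.11 to 0.24). In AEG-1fl/fl their zonation was -0.06 and -0.02. Srebf2 was at 0.03 and 0.14, and Scap at 0.14 and 0.07, with intervals of the difference on both sides of 0.

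The biliary exporter was higher towards zone 3 in both sections. Abcg8 had 72.5, 94.6 and 113 CPM from zone 1 to zone 3 in AEG-1ΔMAC and 64.9, 75.6 and 86.2 CPM in AEG-1fl/fl, and its zonation was 0.64 (0.53 to 0.75) and 0.41 (0.29 to 0.53). Abcg5 had 43.2, 51.1 and 58.1 CPM and 39.1, 42.9 and 43.8 CPM, with a zonation of 0.43 and 0.16. Both were higher in AEG-1ΔMAC, by 0.23 (0.07 to 0.39) for Abcg8 and 0.26 (0.05 to 0.48) for Abcg5. With spots matched on UMIs both intervals held 0, at 0.16 (-0.02 to 0.34) and 0.23 (-0.01 to 0.47), and with the landmark index Abcg5 was at 0.12 (-0.09 to 0.33). Stard4 was at -0.33 and 0.06, a difference of -0.40 (-0.60 to -0.20), and was in this respect like the enzymes. Soat2, Scarb1 and Abca1 differed by 0.17, 0.14 and -0.10, and only the interval of Scarb1 (0.03 to 0.26) lay on one side of 0.

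Finer profiles over 10 equal bins of spots, from bin 1 at the zone 1 end to bin 10 at the zone 3 end, do not rest on the choice of 3 parts. In AEG-1fl/fl 11 of the 15 enzymes had their highest level in bins 8 to 10, 2 in bins 1 to 3 and 2 between. In AEG-1ΔMAC 7 were highest in bins 8 to 10, 8 in bins 1 to 3 and 0 between. These counts have no share of all genes beside them, so whether they are unusual was not tested. The place of the highest bin means little for a nearly level gene. Ebp, for example, differed by 1.11-fold between its highest and lowest bin in AEG-1ΔMAC. Hmgcs1 ran from 195 CPM in bin 1 to 332 CPM in bin 10 in AEG-1fl/fl, and from 223 to 230 CPM in AEG-1ΔMAC with its lowest value, 191 CPM, in bin 5. Sqle ran from 71.8 to 30.5 CPM in AEG-1ΔMAC and from 59.8 to 47.8 CPM in AEG-1fl/fl. In bin 1 the levels of Hmgcs1 and Msmo1 in CPM were higher in AEG-1ΔMAC. For Sqle the intervals of bin 1 overlapped (64.1 to 80.2 and 53.1 to 67.1 CPM). In bin 10 the levels of Hmgcs1, Sqle and Msmo1 were lower in AEG-1ΔMAC.

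**Figure D4:**
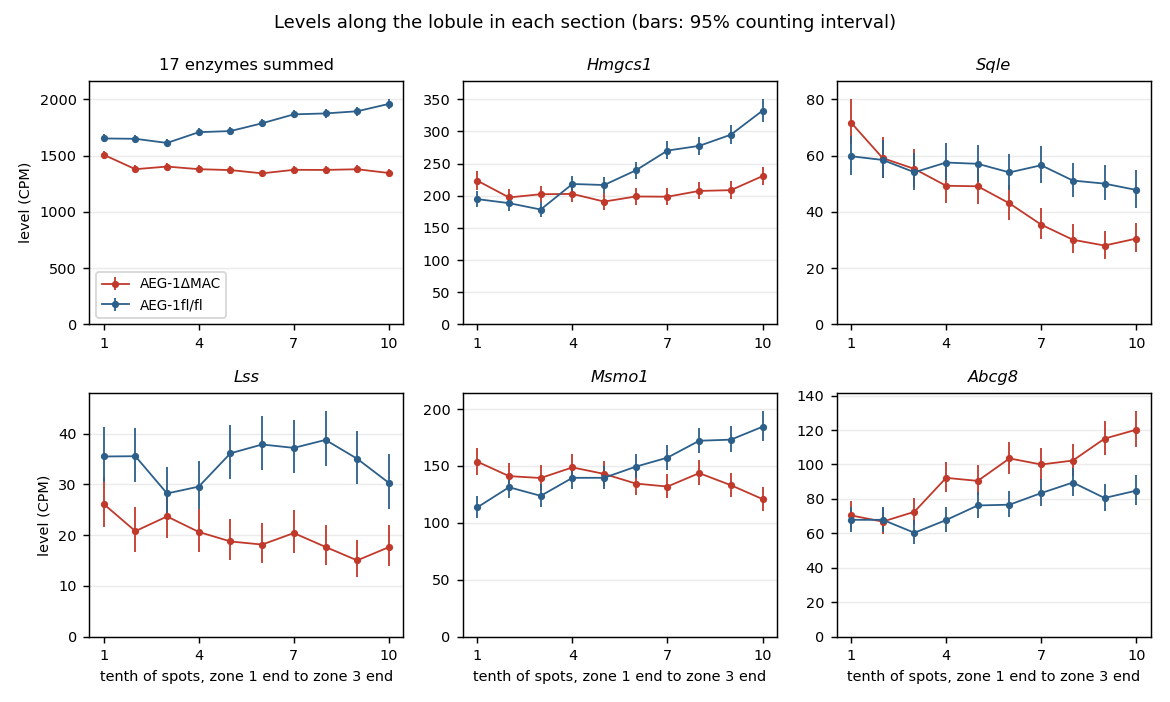
Level in CPM over 10 equal bins of spots from the zone 1 end to the zone 3 end in AEG-1ΔMAC and AEG-1fl/fl, with 95% Poisson intervals, for the 17 enzymes summed and 5 single genes. The enzyme sum climbs from 1652 to 1960 CPM in AEG-1fl/fl and goes from 1508 to 1345 CPM in AEG-1ΔMAC, and the lines of Hmgcs1, Sqle and Msmo1 cross.

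The ratio of the enzymes between the genotypes was accordingly nearest to 0 in the zone 1 part. The median log2 ratio of the 15 enzymes was -0.20 in the zone 1 part, -0.31 in the middle part and -0.46 in the zone 3 part, against 0.13, 0.16 and 0.15 for all genes. A ratio that was lower in the middle than in zone 1 and lower again in zone 3 was found for 10 of the 15 enzymes, against 18.3% of all genes. For the enzymes summed it was -0.20 (-0.23 to -0.17), -0.37 (-0.39 to -0.34) and -0.49 (-0.51 to -0.46). In all 3 parts 9 of the 15 were below 0, against 12.8% of all genes. Pmvk was at -0.75, -0.76 and -0.96, Lss at -0.46, -0.90 and -1.07, Sc5d at -0.48, -0.62 and -0.65, and Dhcr7 at -0.38, -0.60 and -0.65. These genes were lower throughout.

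For others the sign depended on the place, and for Hmgcs1 and Sqle also on the scaling. Hmgcs1 was at 0.12 (0.04 to 0.19) in the zone 1 part, -0.22 in the middle and -0.49 (-0.56 to -0.43) in the zone 3 part. Msmo1 was at 0.23 (0.14 to 0.32), -0.07 and -0.40 (-0.48 to -0.32), and Sqle at 0.08 (-0.05 to 0.21), -0.36 and -0.73 (-0.90 to -0.56). The section-wide ratio of Msmo1 of -0.09 therefore averaged a higher level on one side of the lobule and a lower level on the other. Hsd17b7 was at 0.35 in the zone 1 part and 0.06 in the zone 3 part. Insig1 was below 0 throughout at -0.25, -0.34 and -0.46. Srebf2 was above 0 throughout at 0.32, 0.25 and 0.21, as were 62.5% of all genes. Abcg8, at 0.16, 0.32 and 0.39, and Abcg5, at 0.14, 0.25 and 0.41, had their highest ratio in the zone 3 part, where the enzymes had their lowest.

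**Figure D5:**
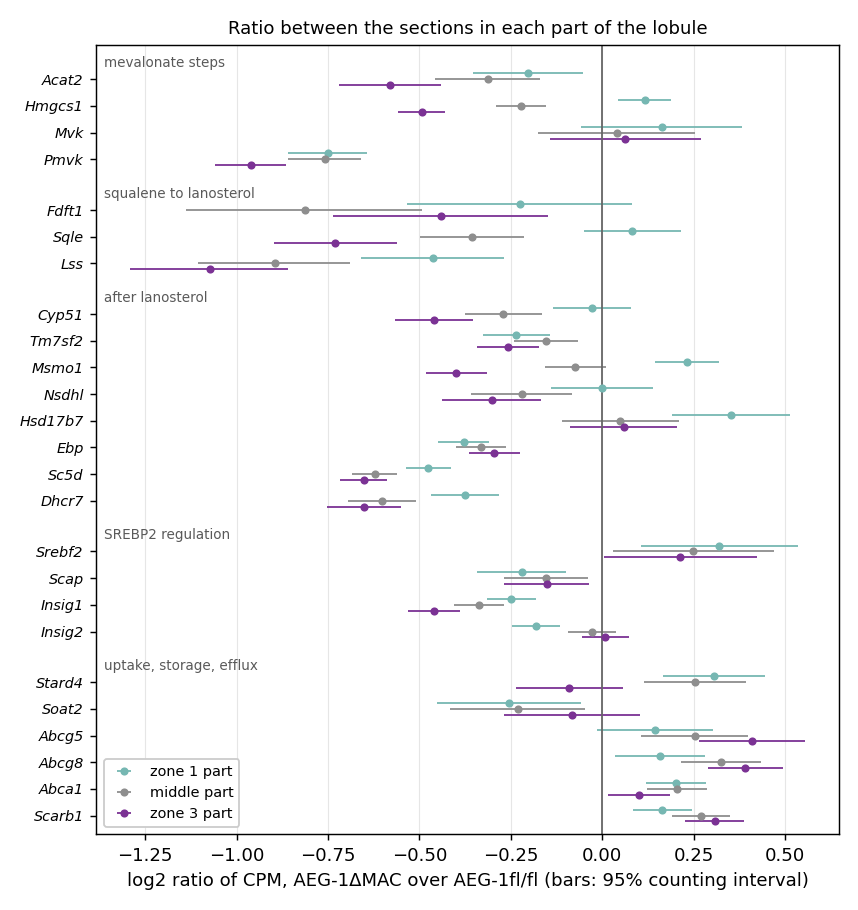
Log2 ratio of AEG-1ΔMAC over AEG-1fl/fl in the zone 1, middle and zone 3 parts for the 25 genes with at least 10 CPM, with 95% counting intervals. For Hmgcs1 and Msmo1 the zone 1 point is right of 0 and the zone 3 point left of it, while Abcg8 and Abcg5 run in the other order.

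Because each part is a fixed share of its own section, the same part may lie elsewhere on the lobule in the other section. The zone 3 markers that made the ranking (Cyp2e1, Cyp1a2 and Oat) summed to 8543 and 3498 CPM. When the spots of both sections were ranked together, 43.7% of the AEG-1ΔMAC section but 24.6% of the AEG-1fl/fl section fell in the zone 3 part. Under that ranking the difference in zonation was still -0.62 for Hmgcs1, -0.79 for Sqle and -0.61 for Msmo1. Spots matched on UMIs, 1783 a section, gave -0.65, -0.87 and -0.69. The median UMIs per spot in the 3 parts lay between 20341 and 21242 in AEG-1ΔMAC and between 17844 and 19059 in AEG-1fl/fl.

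Because the deletion is in myeloid cells, markers of the other cell types were read beside the set. The 9 Kupffer cell markers, for liver macrophages, summed to 952 and 894 CPM, with 6 of 9 above 0 and a log2 ratio of 0.09, or -0.06 relative to the median of all genes. Among them Marco, a scavenger receptor, was called lower, with 13.9 and 36.1 CPM, at -1.38 (-1.51 to -1.24). The 5 cholangiocyte markers summed to 87.3 and 88.2 CPM, with 4 of 5 above 0 but Sox9 called lower, at -0.91 (-1.05 to -0.77). The 5 stellate cell markers summed to 407 and 408 CPM, with 2 of 5 above 0 and Colec11 at -0.48 (-0.55 to -0.40). The 5 endothelial markers summed to 506 and 512 CPM, with 2 of 5 above 0. No marker was at 0 in either section. In the 10% of spots richest in Kupffer cell markers within each part, the 15 enzymes had a median log2 ratio to the other spots of -0.02 and -0.13, where all genes had -0.01 and -0.03. None of the 15 had an interval above 0 in these spots, and 1 and 6 of them had one below 0. Median UMIs were lower in these spots than in the others, at 19254 against 21106 in AEG-1ΔMAC and 16109.5 against 18686 in AEG-1fl/fl. In spots rich in cholangiocyte markers the enzyme median was 0.01 and -0.05, against 0.05 for all genes in both sections. There 2 of 15 enzymes in AEG-1ΔMAC had an interval above 0, Lss at 0.44 and Sqle at 0.34, and 1 had one below, while in AEG-1fl/fl 0 were above and 5 below. Srebf2 was at 0.49 (0.23 to 0.74) and -0.01 in these spots. In spots rich in stellate cell markers the enzyme median was -0.02 and -0.07, with 0 intervals above 0 and 1 and 3 below. In spots rich in endothelial markers it was -0.07 and -0.06, with 1 and 0 above and 1 and 1 below. For all these kinds of spots the counts of intervals have no share of all genes beside them. Whether they are unusual was not tested.

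Whether the genes vary together from spot to spot was read within each part. The 25% of spots with the highest share of mevalonate and squalene enzymes were set against the 25% with the lowest, 534 against 534 spots in AEG-1ΔMAC and 633 against 633 in AEG-1fl/fl, and the genes outside those steps were compared. Srebf2 was higher in the rich spots of both sections, by a log2 ratio of 0.38 (0.14 to 0.63) and 0.29 (0.03 to 0.57). So were Scap, at 0.20 and 0.34, and Insig1, at 0.12 and 0.21, whereas Insig2 was at 0.01 and -0.01. Of the 8 genes after lanosterol, 5 had an interval above 0 in AEG-1fl/fl, led by Nsdhl at 0.47 (0.31 to 0.63), and 0 in AEG-1ΔMAC. Their median was 0.04 in AEG-1ΔMAC, as for all genes, and 0.16 in AEG-1fl/fl, against 0.05. The share of all genes with such intervals is not given. In AEG-1fl/fl the rich and poor spots had median UMIs of 18575 and 16260 and cholangiocyte markers of 60.0 and 103.8 CPM. In AEG-1ΔMAC these were 20082.5 and 20554 UMIs and 120.8 and 81.2 CPM. Abcg8 was at 0.37 in AEG-1fl/fl and -0.08 in AEG-1ΔMAC. The middle 90% of all genes spanned -0.17 to 0.27 and -0.24 to 0.31. Insig1 in both sections, Scap in AEG-1ΔMAC and Srebf2 in AEG-1fl/fl lay within that span. After lanosterol only Nsdhl in AEG-1fl/fl lay outside it. Spots of a section are not replicates, and whether the sections differ in these ratios was not tested.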

How the data were processed

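Liver sections of 1 AEG-1ΔMAC and 1 AEG-1fl/fl mouse were profiled by the authors with the 10x Visium assay for fixed tissue, in which probe pairs report each transcript. Per the submitters' processing notes Space Ranger 2.0.1 and the mm10 build were used, together with Seurat 4.3.0. The deposited matrices hold raw counts of UMIs per gene and spot, with no normalisation. Groups were taken from the genotype labels.

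Spots with at most 50000 UMIs and 100 to 7000 genes were kept, which removed 9 AEG-1ΔMAC and 3 AEG-1fl/fl spots. UMIs were summed per section or lobule part and divided by the total to give CPM, with exact Poisson 95% intervals. Ratios carry exact conditional binomial (Clopper-Pearson) intervals, and differences of zonation a normal interval from the counts. Calls needed a mean of at least 10 CPM, 1.5-fold and an interval on that side. For the zone index, log-normalised marker values were scaled within each section, and the mean of Cyp2e1, Cyp1a2 and Oat minus the mean of Arg1, Cyp2f2, Gls2, Hal, Hsd17b13 and Pck1 was taken. Full values are given for the regulators and, in each step, for the 2 genes with the largest ratio and the 2 with the largest zonation in AEG-1fl/fl. Gene positions came from GENCODE M21, in which all 28 genes were found by identifier. Calculations used Python 3.11.15, scipy 1.17.1 and, for TMM factors, edgeR 4.0.16, and were tested on simulated data. The genes, lists and comparisons were chosen with earlier results of these data known. Counts depend on the probes of a gene, so levels are compared between sections and parts and not between genes. Other scalings, spot filters, zone indices and thresholds were tried. The authors' tests on spots were not repeated, because spots are not replicates. Some genes of the companion lists are not reported here.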

Additional observations from a re-analysis of the deposited data

Results flagged for a closer look

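For 3 genes the 2 sections or the 2 ends of the lobule lay on opposite sides of 0, each with a counting interval that excluded 0. Hmgcs1 had a log2 ratio above 0 in the zone 1 part and below 0 in the zone 3 part, a difference of -0.61. Msmo1 did the same with a difference of -0.63, and its zonation was below 0 in AEG-1ΔMAC and above 0 in AEG-1fl/fl, also a difference of -0.63, which is the same contrast read the other way. The zonation of Cyp51 was below 0 in AEG-1ΔMAC and above 0 in AEG-1fl/fl, a difference of -0.43. With 1 section per genotype none of these differences was tested.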

How the results depend on the processing

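No paired analysis was possible because each genotype had 1 library. Nor could a library be left out. TMM factors, median-of-ratios factors, leaving out the 50 most abundant genes and centring on the median of all genes lowered every log2 ratio by 0.12 to 0.15. For whole sections Mvk alone of the 25 genes then turned from above to below 0, with an interval that held 0 in the report's setting. In the zone 1 part the ratios of Hmgcs1 and Sqle also turned from above to below 0. Under each of these 4 scalings 5 genes were at least 1.5-fold lower in place of 2, and the enzyme median was -0.40, -0.41, -0.42 and -0.43 in that order. By part it was -0.33, -0.33, -0.34 and -0.34 in zone 1, -0.44, -0.44, -0.46 and -0.47 in the middle and -0.58, -0.59, -0.60 and -0.61 in zone 3. The count of genes lower was 1 at a mean of at least 50 CPM, 8 at a fold threshold below 1.5 and 0 at 2-fold.

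The zonation median of the enzymes in AEG-1ΔMAC, 0.04, turned to -0.11 with the outer 10% of spots, -0.0264 with landmark genes as the index, -0.0216 with both sections ranked together and -0.0464 with spots matched on UMIs, so its sign is not settled. The zonation of single genes near 0 (Hmgcs1, Fdft1, Ebp, Srebf2 and Abca1 in AEG-1ΔMAC, and Lss, Scap, Insig2 and Abca1 in AEG-1fl/fl) also turned under some of these settings. Periportal genes in AEG-1ΔMAC numbered 2 with the outer 10% and 4 at the lower fold threshold. Pericentral genes numbered 2, 0, 2 and 0 in AEG-1ΔMAC and 5, 0, 6 and 0 in AEG-1fl/fl with the outer 10%, landmark genes, the lower fold threshold and 2-fold. Chosen after seeing the data, the count of genes with at least 1.5-fold lower zonation in AEG-1ΔMAC was repeated under 6 settings and was 3 or 4, with Lss lost under the landmark index (-0.49), the joint ranking (-0.46) and the outer 10% (-0.34), where Cyp51 took its place. Depth limits Mvd, Idi1 and Fdft1, whose part values rest on few UMIs.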
